A study of Mus musculus with 13 samples.

Results

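Tetraspanins are small membrane proteins that cross the membrane several times and hold integrins, immunoglobulin-superfamily proteins and each other in patches called tetraspanin-enriched microdomains. They act in adhesion, receptor trafficking and the release of extracellular vesicles, on which CD9, CD63 and CD81 are standard markers. In microglia, the resident macrophages of the brain, Cd9 and Cd63 are known members of the gene signature of cells that gather at amyloid plaques. The 7 tetraspanin genes described here (Cd9, Cd63, Cd81, Cd82, Cd53, Cd37 and Cd151) were chosen by symbol, and all 7 are among the 19737 genes of the expression table.

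The samples were 13 libraries of ribosomal RNA-depleted total RNA labelled as mouse microglia. AAV PHP.eB-EGFP had been given to wild type mice (n = 3) and to 5xFAD mice (n = 2). It is an adeno-associated virus with the brain-directed PHP.eB capsid carrying a fluorescent protein. Other 5xFAD mice (n = 4) had received AAV PHP.eB-circPOLR2A, here called the circRNA vector. The treatment label of the first of these libraries ends in (9,10) and those of the other 3 in (9,11), (9,12) and (9,13), while the design text gives (9,10) for the whole group, and they were kept together by title. The last group was 5xFAD; PKR KO (n = 4), labelled as a knockout of PKR, a kinase switched on by double-stranded RNA, and no vector is named for it. In 5xFAD mice, which model familial Alzheimer's disease, the transgenes are driven in neurons by a Thy1 promoter, so the microglia themselves are not the designed site of transgene expression. Every 5xFAD group carries these transgenes, and the circRNA and EGFP groups also share the capsid. Age, sex, the way microglia were isolated and whether a library is 1 animal are not given in the sources used here, so p-values measure the spread between these libraries, which may in part be technical.

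Values are FPKM, fragments per kilobase of exon, scaled to the fragments of the library, so a level can be compared between genes per length. Depth ranged from 45.2 to 70.0 M fragments per library, and the PKR KO libraries, which alone carry library names in the labels, were the deepest. No member rested on fewer than 1228 fragments in any library (Cd151), so the counting error of a member was at most 2.85%. Summed over 10 microglia markers, the level was 3157 FPKM in wild type replicate 3 and 4006 to 5962 FPKM in the other 12 libraries. The same replicate had the highest sum of 7 oligodendrocyte markers, at 1610 FPKM against 230.5 to 813 FPKM elsewhere. It also had the highest sums of neuron (22.6 FPKM), astrocyte (257.5 FPKM), endothelial (146 FPKM) and mural cell markers (107.5 FPKM) of the 13 libraries, and where stated a change is also given without it. Eif2ak2, which encodes PKR, was at 3.31 to 4.61 FPKM in the PKR KO libraries, below the 6.49 to 8.11 FPKM of the other 5xFAD libraries but overlapping the 4.14 to 5.23 FPKM of wild type. The position of the deletion is not given in the sources used here, so the level shows fewer Eif2ak2 fragments rather than which exons are gone.

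In GRCm38 with the GENCODE M21 annotation, Cd9 lies on chromosome 6 (125460266 to 125494791, minus strand) and Cd63 on chromosome 10 (128900989 to 128912822, plus strand). Chromosome 7 holds 3 members, which are Cd81 (143052739 to 143067934, plus strand), Cd37 (45233632 to 45239115, minus strand) and Cd151 (141467392 to 141471473, plus strand). Cd82 is on chromosome 2 (93419111 to 93463140, minus strand) and Cd53 on chromosome 3 (106759921 to 106790149, minus strand). Exons of 4 members overlap an exon of a gene on the opposite strand, by 218 bases for Cd9 (Gm26728), 104 for Cd81 (R74862), 13 for Cd37 (Tead2) and 193 for Cd151 (Gm10575). The library kit marks strand, but whether counting used it is not given in the sources used here.

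The sequence before the transcription start is shown for the pair of members that rose together in 5xFAD, Cd9 and Cd63, and for Cd81, the most abundant member in wild type microglia. Each line runs 5′ to 3′ on the gene's own strand, from 250 to 51 bases before the RefSeq start, in build GRCm38.p6. Capitals mark any of 5 motifs searched on both strands. The E-box was searched as CACGTG and the AP-1 site as TGACTCA. The core of ETS factor sites, such as those of the macrophage factor PU.1, was searched as GGAAGT. The GC box was searched as GGGCGG, and the TATA box as its usual TATAAA. None of these windows touches an exon of its own gene in GENCODE M21.
Cd9, chr6:125494811-125495010, minus strand: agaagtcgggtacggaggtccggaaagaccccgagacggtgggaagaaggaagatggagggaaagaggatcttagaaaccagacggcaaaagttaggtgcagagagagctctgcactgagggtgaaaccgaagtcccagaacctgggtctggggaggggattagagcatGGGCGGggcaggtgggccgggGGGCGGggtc
Cd63, chr10:128909095-128909294, plus strand: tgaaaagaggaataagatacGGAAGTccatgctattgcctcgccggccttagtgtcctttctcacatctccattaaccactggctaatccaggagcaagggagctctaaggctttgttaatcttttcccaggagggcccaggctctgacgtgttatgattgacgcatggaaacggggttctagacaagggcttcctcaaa
Cd81, chr7:143052500-143052699, plus strand: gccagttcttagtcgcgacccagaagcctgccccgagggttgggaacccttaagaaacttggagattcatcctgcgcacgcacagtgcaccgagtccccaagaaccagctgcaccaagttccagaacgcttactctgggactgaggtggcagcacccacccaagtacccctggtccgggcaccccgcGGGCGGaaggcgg
The Cd9 window held 2 GC boxes, the Cd81 window 1 GC box, and the Cd63 window 1 GGAAGT and no GC box. Over 32851 RefSeq windows of the same 200 bases, 24.6% held a GC box and 14.6% a GGAAGT. The GC content was 60.5% for Cd9, 62.5% for Cd81 and 49.0% for Cd63, beside a median of 51.5% over all windows. The Cd63 window lies inside the longest GENCODE model of its own gene, in an intron, because that gene has several annotated starts. Thus Cd9 and Cd63 shared none of the 5 motifs in these windows, and a match or its absence is a description of letters only.

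In wild type microglia Cd81, a broadly expressed tetraspanin, had the highest level of the 7, at 179 ± 32.7 FPKM (SD, n = 3). Cd53, a leukocyte tetraspanin, followed at 89.4 ± 22.4, and Cd9 at 71.6 ± 11.7 FPKM. Cd53 and Cd9 overlapped between libraries, though Cd53 was the higher in each wild type library. Below them were Cd37, another leukocyte tetraspanin, at 39.6 ± 9.54, and Cd82, also called KAI1 and known as a metastasis suppressor, at 24.1 ± 2.74 FPKM. Cd63, found mainly in late endosomes and lysosomes, was at 13.8 ± 2.28, and Cd151, which binds laminin-binding integrins, at 12.9 ± 0.967 FPKM, and their ranges overlapped. A level per length depends on the exon length used, which ranged from 1742 bases for Cd53 to 3682 bases for Cd63.

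**Figure D1:**
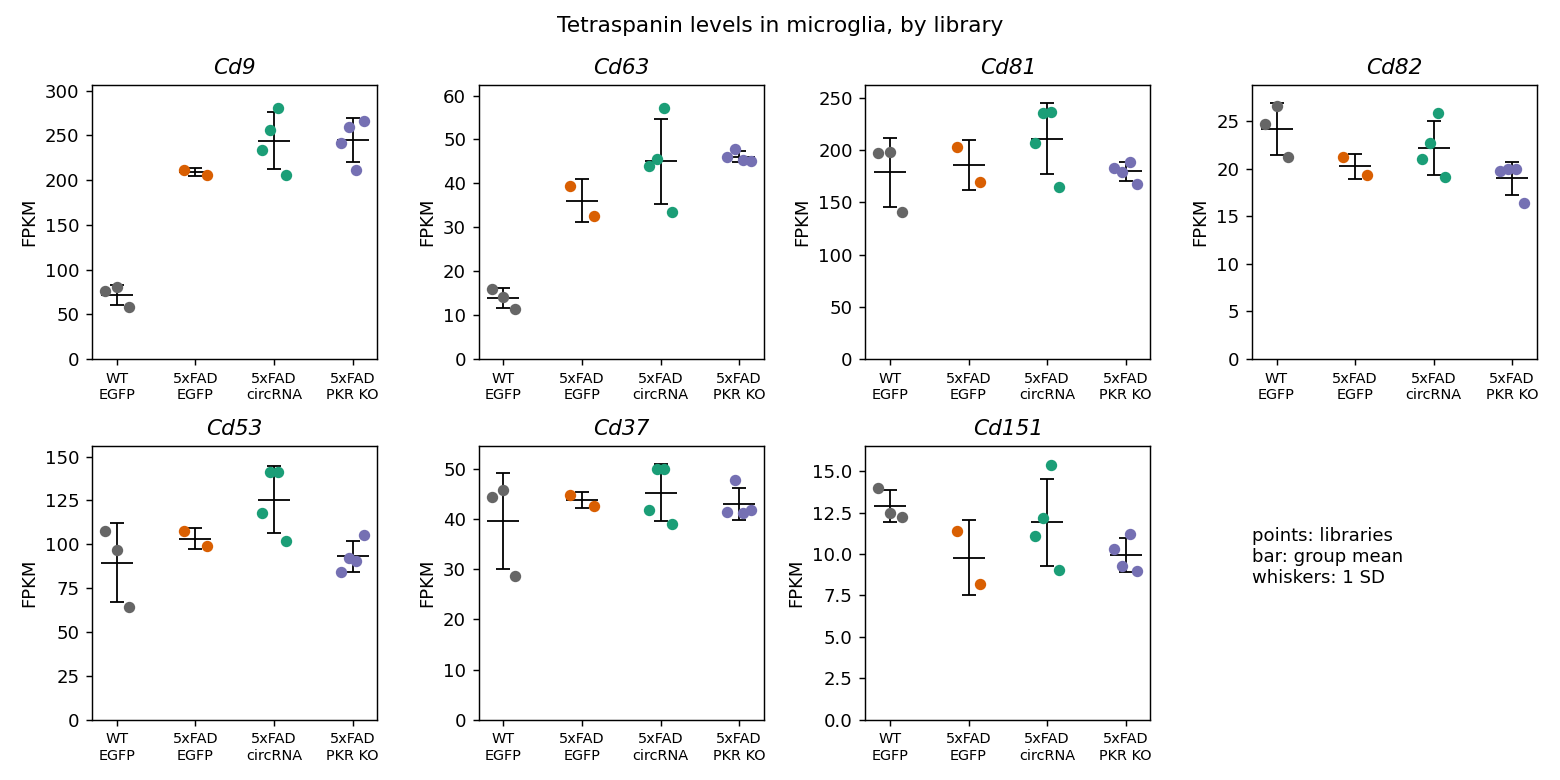
FPKM of each of the 7 tetraspanins in every library (points) of the 4 groups, with the group mean (bar) and 1 SD (whiskers), each panel on its own linear axis from 0. Cd9 and Cd63 are above every wild type library in all 5xFAD libraries, while the other 5 genes stay within overlapping or neighbouring ranges.

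Cd9 and Cd63 were the members that rose in 5xFAD. Cd9, which pairs with CD81 and with immunoglobulin-superfamily partners at the cell surface, was at 75.5, 80.8 and 58.4 FPKM in wild type replicates 1 to 3 and at 212 and 206 FPKM in the 5xFAD EGFP libraries. The groups did not overlap, and even the highest wild type library was below each 5xFAD library. The ratio of means was 2.92, and the change on the log2(FPKM + 1) scale was 1.54 (SE 0.17, 95% interval 1.17 to 1.92; limma adjusted p = 0.000111). Cd63, which traffics through multivesicular bodies and is released on exosomes, was at 15.9, 14.1 and 11.4 FPKM in wild type and at 39.5 and 32.7 FPKM in 5xFAD EGFP. These groups did not overlap either, with a ratio of means of 2.61 and 1.33 on the log2 scale (SE 0.19, 95% interval 0.92 to 1.73; limma adjusted p = 0.000605). Without wild type replicate 3 the log2 changes were 1.41 for Cd9 (limma adjusted p = 0.000125) and 1.20 for Cd63 (limma adjusted p = 0.00122). In this comparison 14.0% of all 10817 genes tested passed the threshold of 0.05, and 2 of the 7 tetraspanins did, both upward. The median change was 0.17 over the 7 members and −0.03 over all genes tested. Among 6 astrocyte markers, 1 passed as higher in the same comparison and 0 as lower, with a median change of −0.40. That marker was Gfap, which averaged 19.3 FPKM in wild type and 62.5, 68.9 and 91.1 FPKM in the EGFP, circRNA and PKR KO groups of 5xFAD, with 1 of the 6 higher and 0 lower in circRNA against wild type and 1 higher and 2 lower in PKR KO against wild type (medians −0.26 and −0.57). The 2 lower ones were Aqp4 and Gja1. Without wild type replicate 3 the counts were 1 higher and 0 lower in 5xFAD EGFP and in circRNA, and 1 and 1 in PKR KO. The shares of all genes tested were 18.5%, 23.8% and 35.0% in that fit. There Gja1 passed in PKR KO (−0.84; limma adjusted p = 0.0334), and the call of Aqp4 was lost (−0.49; limma adjusted p = 0.163). The part of astrocyte RNA in the values of Cd9 and Cd63 was not tested. Of 7 oligodendrocyte and 3 tested neuron markers, 0 passed in any comparison with wild type with all libraries. With wild type replicate 3 left out, 4 oligodendrocyte and 2 neuron markers passed as higher in 5xFAD EGFP. In that comparison 0 passed as lower, beside 18.5% of all genes tested. The same fit called 0 in circRNA or PKR KO against wild type, beside 23.8% and 35.0%. The part of oligodendrocyte and neuron RNA in the values of Cd9 and Cd63 was not tested either. In bulk RNA, more cells with a high level and more RNA per cell cannot be told apart.

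The same pair was high in every other 5xFAD library. Cd9 was at 234, 256, 281 and 206 FPKM in circRNA replicates 1 to 4 and at 242, 259.7, 211 and 266 FPKM in PKR KO replicates 1 to 4. Cd63 was at 43.8, 45.6, 57.2 and 33.4 FPKM in the circRNA group and at 46.1, 47.8, 45.4 and 45.0 FPKM in PKR KO. For both genes, wild type had the lowest mean and the means of the 3 5xFAD groups stood in the order EGFP, circRNA, PKR KO. Within 5xFAD these neighbours in level did not differ beyond their spread by the test. Against wild type, Cd9 rose by 1.76 with circRNA (limma adjusted p = 3.71e-06) and by 1.77 in PKR KO (limma adjusted p = 2.47e-06), and Cd63 rose by 1.62 (limma adjusted p = 1.34e-05) and 1.68 (limma adjusted p = 7.21e-06) on the log2 scale. Without wild type replicate 3 these changes were 1.62 and 1.63 for Cd9 and 1.498 and 1.55 for Cd63, and all passed. The comparisons with wild type all use the same 3 wild type libraries. Over all genes tested, 25.8% passed in circRNA against wild type and 37.0% in PKR KO against wild type, and 3 of the 7 members passed in each. Those counts are near the background and are not read as a result about the 7 genes together.

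No member passed the threshold in a comparison between 5xFAD groups. In circRNA against EGFP, limma called 0 of 7 members, 0 of them also at an unadjusted p under 0.05, and 0% of all genes tested, with 523 genes at an unadjusted p under 0.05. All 7 members had a positive estimate, from 0.04 for Cd37 to 0.29 for Cd63, beside a median of 0.08 over all genes tested. The 95% interval of the log2 change was −0.14 to 0.57 for Cd9 and −0.09 to 0.68 for Cd63. That comparison rests on 2 EGFP libraries. In PKR KO against EGFP, 0 of 7 members passed, 0 at an unadjusted p under 0.05, beside 0.0832% of all genes tested. Every PKR KO library was above both EGFP libraries for Cd63, yet the log2 change of 0.35 (95% interval −0.03 to 0.73) had a limma adjusted p of 0.419. Cd9 differed by 0.22 (95% interval −0.13 to 0.58; limma adjusted p = 0.566). Both of these comparisons use the same 2 EGFP libraries.

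**Figure D2:**
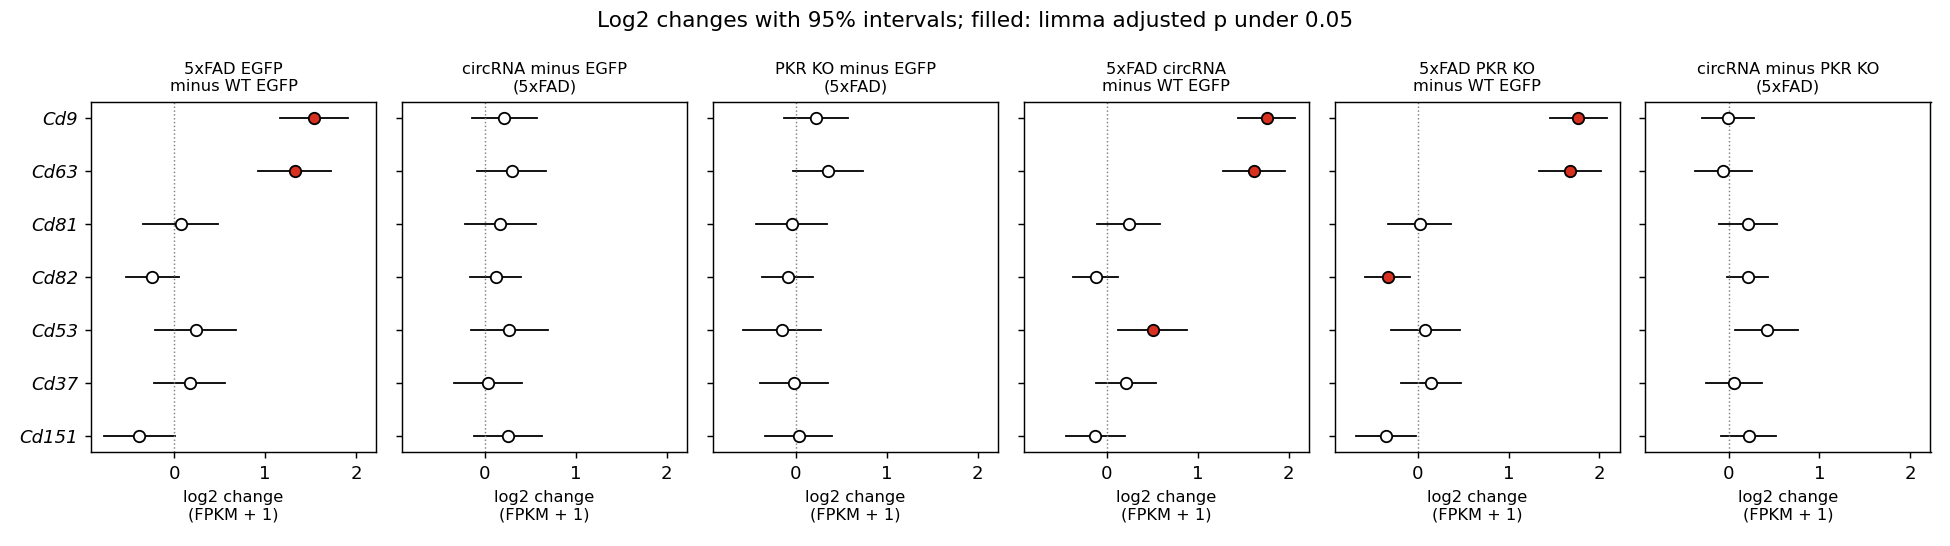
Log2 change of each tetraspanin (points) with its 95% interval (lines) in the 6 comparisons, on a shared axis in log2(FPKM + 1) units; filled points passed a limma adjusted p of 0.05. Cd9 and Cd63 are filled and between 1.33 and 1.77 in the 3 comparisons with wild type, and no member is filled in the 3 comparisons within 5xFAD.

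Cd81 had no called change in any comparison. It was at 197, 198 and 141 FPKM in wild type, 203 and 169 in 5xFAD EGFP, 207, 236, 237 and 165 with circRNA, and 183, 179, 189 and 168 FPKM in PKR KO. The lowest library was wild type replicate 3, and the groups overlapped throughout. The log2 change in 5xFAD EGFP against wild type was 0.07 (95% interval −0.34 to 0.48; limma adjusted p = 0.857), which excludes a change of the size seen for Cd9 or Cd63. Its sign was negative without wild type replicate 3, without 5xFAD EGFP replicate 1, after rescaling to the same sum (−0.10) and with library weights (−0.0464).

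Cd53 was at 107, 96.6 and 64.2 FPKM in wild type, 107 and 99.1 in 5xFAD EGFP, 118, 141, 141 and 102 with circRNA, and 84.4, 92.0, 90.4 and 106 FPKM in PKR KO. The circRNA libraries held the highest values, but their lowest library lay within the wild type range and within the PKR KO range. Cd53 passed in circRNA against wild type, at 0.50 on the log2 scale (SE 0.17; limma adjusted p = 0.0493). Of 21 other settings, 17 ended this call, among them without wild type replicate 3 (0.29; limma adjusted p = 0.170). In circRNA against PKR KO, 6.19% of all genes tested passed and 0 of 7 members, and Cd53 alone had an unadjusted p under 0.05. Its log2 change there was 0.42 (95% interval 0.07 to 0.77; limma adjusted p = 0.127), and it passed without wild type replicate 3 (adjusted p = 0.0386) and with library weights (adjusted p = 0.0191). In 5xFAD EGFP against wild type the change of Cd53 was 0.24 (limma adjusted p = 0.514). It was 0.0185 (limma adjusted p = 0.952) when wild type replicate 3 was left out.

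Cd37, the other leukocyte tetraspanin, was at 44.4, 45.8 and 28.6 FPKM in wild type, 44.9 and 42.6 in 5xFAD EGFP, 41.8, 50.0, 50.0 and 38.9 with circRNA, and 41.4, 47.8, 41.3 and 41.7 FPKM in PKR KO. Apart from wild type replicate 3 the 12 libraries lay between 38.9 and 50.0 FPKM. No comparison called Cd37, and its estimates ran from −0.02 to 0.21 with limma adjusted p-values of 0.355 to 0.962. Cd37 and Cd53 are also made by lymphocytes, and 6 lymphocyte markers summed to 1.89 to 4.03 FPKM, and 5 of them averaged under 1 FPKM in every group.

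Cd82 and Cd151 had lower means in each 5xFAD group than in wild type, by small amounts. Cd82 was at 24.7, 26.6 and 21.2 FPKM in wild type, 21.2 and 19.3 in 5xFAD EGFP, 21.0, 22.7, 25.8 and 19.1 with circRNA, and 19.7, 19.9, 19.9 and 16.4 FPKM in PKR KO. All 4 PKR KO libraries were below every wild type library, and Cd82 fell by 0.33 on the log2 scale in that comparison (SE 0.11, 95% interval −0.58 to −0.08; limma adjusted p = 0.0376). The call was lost in 8 of 21 other settings, among them without wild type replicate 1 or 2 and without any 1 of the 4 PKR KO libraries. Without wild type replicate 3 the change was −0.42 and passed (limma adjusted p = 0.0165). In 5xFAD EGFP against wild type its estimate was −0.24 (limma adjusted p = 0.296), and −0.33 without that replicate (limma adjusted p = 0.112).

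Cd151 was at 14.0, 12.5 and 12.2 FPKM in wild type, 11.4 and 8.16 in 5xFAD EGFP, 11.1, 12.2, 15.4 and 9.03 with circRNA, and 10.3, 9.25, 11.2 and 8.96 FPKM in PKR KO. The 5xFAD EGFP and PKR KO libraries were all below wild type, while the circRNA libraries spanned it. Neither difference passed: the log2 change was −0.38 in 5xFAD EGFP (limma adjusted p = 0.204) and −0.35 in PKR KO (limma adjusted p = 0.0868), and the former was −0.60 without 5xFAD EGFP replicate 1 and −0.16 without replicate 2. The latter passed in 3 of 21 other settings, which were without circRNA replicate 3 (adjusted p = 0.0451), with the compared groups fitted alone (adjusted p = 0.0273) and after rescaling to the same sum (−0.57; adjusted p = 0.00199). Without wild type replicate 3 the changes were −0.42 (limma adjusted p = 0.166) and −0.38 (limma adjusted p = 0.103). Endothelial cells are rich in Cd151, and the summed level of 6 endothelial markers was 64.2 to 146 FPKM in wild type and 27.6 to 80.2 FPKM in the 5xFAD groups. Of those markers, 5 of 6 passed as lower in 5xFAD EGFP against wild type, and 4 of 4 tested mural cell markers did as well, beside 14.0% of all genes tested. With wild type replicate 3 left out, 4 of 6 and 3 of 4 passed as lower, beside 18.5% of all genes tested. The part of vascular cells in the Cd151 and Cd82 values was not tested.

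When every library was rescaled to the same summed FPKM, the median over all genes in 5xFAD EGFP against wild type moved from −0.03 to −0.17, and Cd82 at −0.41 (limma adjusted p = 0.0236) and Cd151 at −0.54 (limma adjusted p = 0.0149) passed as lower. The call count among the 7 was then 4, beside 34.3% of all genes tested under that rescaling. Under the same rescaling Cd82 (−0.40; limma adjusted p = 0.00657) and Cd151 (−0.40; limma adjusted p = 0.0172) also passed as lower in circRNA against wild type, as did Cd82 (−0.55; limma adjusted p = 0.000751) and Cd151 in PKR KO against wild type. Cd9 and Cd63 passed as higher in all 3 comparisons with wild type under every setting tried.

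Within a library, ratios between members do not depend on how libraries are scaled, and they are given as a description, chosen after values were seen. The ratio of Cd9 to Cd81 was 0.383 to 0.415 in wild type and 1.04 to 1.21 in 5xFAD EGFP, 1.08 to 1.25 with circRNA and 1.12 to 1.59 in PKR KO. Cd9 was thus below Cd81 in each of the 3 wild type libraries and above it in each of the 10 5xFAD libraries. The ratio of Cd63 to Cd81 was 0.0713 to 0.0810 in wild type, 0.193 to 0.194 in 5xFAD EGFP, 0.193 to 0.241 with circRNA and 0.240 to 0.268 in PKR KO. Wild type replicate 3 sat with the other wild type libraries in both ratios. The ratio of Cd37 to Cd53 was 0.354 to 0.382 with circRNA, below the 0.395 to 0.520 of all other libraries. How many gene pairs would set a group apart in this way was not computed. The ratio of Cd82 to Cd81 was 0.125 to 0.150 in wild type. In 5xFAD it was 0.104 to 0.114 with EGFP, 0.096 to 0.116 with circRNA and 0.0976 to 0.1115 in PKR KO. The ratios of Cd151 and of Cd53 to Cd81, also computed, overlapped between wild type and 5xFAD.

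**Figure D3:**
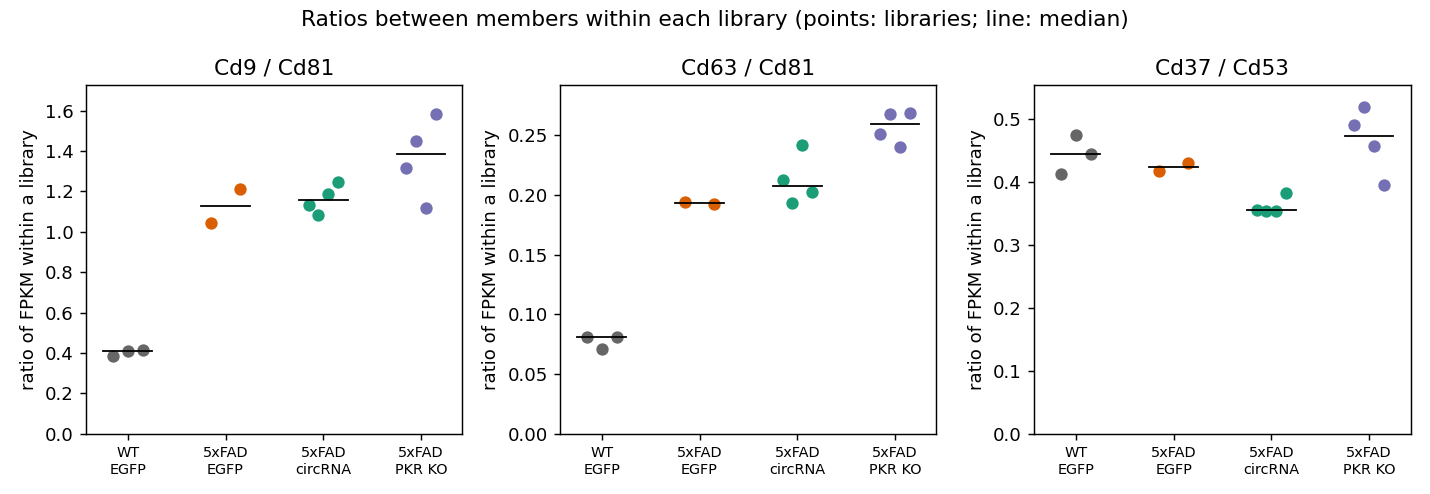
Ratios of FPKM between members within each library (points; line, group median) on linear axes from 0. Cd9/Cd81 and Cd63/Cd81 are higher in all 10 5xFAD libraries than in the 3 wild type libraries, and Cd37/Cd53 is lowest in the 4 circRNA libraries.

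The make-up of the 7 genes by summed level differed between wild type and 5xFAD. The 7 members summed to 337 to 479 FPKM in wild type and to 573 to 807 FPKM in the 5xFAD groups. The sum over all genes was also higher in 5xFAD, at 139019 to 170775 FPKM against 123352 to 135807 FPKM in wild type. Cd9 was 15.8% to 17.3% of that sum in wild type and 33.1% to 40.8% in the 5xFAD libraries, while Cd81 was 41.1% to 41.8% in wild type and 25.8% to 31.8% in 5xFAD. Among all genes of a library ordered by FPKM, Cd9 stood between places 141 and 185 in wild type and between 60 and 73 in 5xFAD. Cd63 moved from places 1268 to 1799 in wild type to places 339 to 496 in 5xFAD, and Cd81 from 49 to 64 in wild type to 72 to 91 in 5xFAD.

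The genes with profiles most like those of Cd9 and Cd63 over the 13 libraries were found by the root-mean-square distance between log2(FPKM + 1) values centred on each gene's mean. Nearest to Cd9 were Serpine2, a secreted protease inhibitor (distance 0.08), Pld3, a lysosomal nuclease (0.085), and Ctsb, the lysosomal protease cathepsin B (0.10). Nearest to Cd63 were Gusb, lysosomal beta-glucuronidase (0.10), Serpine2 (0.10) and Dpp7, a dipeptidyl peptidase of vesicles (0.11). Cd63 was 11th in the order from Cd9, and Cd9 was 10th in the order from Cd63, at 0.13. Serpine2 averaged 18.7 ± 1.46 FPKM (SD, n = 3) in wild type, and 53.5 ± 3.90 (SD, n = 2), 63.8 ± 9.73 (SD, n = 4) and 62.7 ± 4.45 FPKM (SD, n = 4) in the EGFP, circRNA and PKR KO groups of 5xFAD. Gusb averaged 19.8 ± 4.76 FPKM in wild type, and 51.3 ± 4.13, 61.5 ± 11.3 and 62.3 ± 4.90 FPKM in those groups. Nearest to Cd53 were Asah1, lysosomal acid ceramidase (0.09), Ugt1a7c (0.09) and Tmem179b (0.10), with Cd81 as the nearest of the members in 95th place at 0.15. The likeness is over libraries that share their groups and depth.

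The rest of the tetraspanin family was mostly without a call in 5xFAD EGFP against wild type. Of 26 other tetraspanin genes listed, 24 were in the table and 14 averaged at least 1 FPKM, and 0 of the 14 passed as higher and 2 as lower, with a median change of −0.20. That share is near the 14.0% of all genes tested and is not read as a result about the family. In circRNA against wild type 1 of the 14 passed as higher and 2 as lower, and in PKR KO against wild type 0 as higher and 4 as lower, beside 25.8% and 37.0% of all genes tested. Leaving out wild type replicate 3 gave counts of 1 higher and 4 lower in 5xFAD EGFP, 1 and 3 in circRNA, and 1 and 6 in PKR KO, beside 18.5%, 23.8% and 35.0% of all genes tested in that fit. The higher one was Tspan17 each time, and it is named after its values were seen. Tspan17 was at 1.24, 1.17 and 2.05 FPKM in wild type and at 2.46 and 2.02 FPKM in 5xFAD EGFP, where its change was 0.40 (limma adjusted p = 0.0630), and 0.55 without that replicate (limma adjusted p = 0.00208). Tspan18 was at 3.63, 4.72 and 2.82 FPKM in wild type and at 1.25 and 1.23 FPKM in 5xFAD EGFP, and it fell by 1.06 on the log2 scale (limma adjusted p = 0.000318), and by 1.20 without wild type replicate 3. Its level was 1.12 to 1.17 FPKM with circRNA and 0.727 to 1.12 FPKM in PKR KO, so every 5xFAD library was below every wild type library. Tspan18 is known from endothelial cells, whose markers were lower in 5xFAD as given above. In wild type replicates 1 to 3 the endothelial markers summed to 112.4, 64.2 and 146 FPKM. Tspan18 was thus highest where that sum was lowest and lowest where it was highest among these libraries. The part of endothelial cells in the change of Tspan18 was not tested. Upk1b, a uroplakin of the bladder lining, was at 25.6, 21.9 and 15.4 FPKM in wild type, 11.7 and 11.7 in 5xFAD EGFP, 9.74 to 12.9 with circRNA and 6.26 to 9.64 FPKM in PKR KO. It fell by 0.76 in the EGFP-treated 5xFAD group (log2; limma adjusted p = 0.0211), a call lost without wild type replicate 1 or 2, without either EGFP library, and with those groups fitted alone. Without wild type replicate 3 the change was −0.96 and passed.

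Among the partners of tetraspanins (integrin chains, immunoglobulin-superfamily partners and others), 12 genes were listed and 7 were tested, and 0 passed as higher and 1 as lower in 5xFAD EGFP against wild type, with a median change of −0.08, beside 14.0% of all genes tested. That gene was Itga3, the chain of the laminin-binding integrin that pairs with CD151, at 2.28, 1.47 and 2.18 FPKM in wild type and 0.720 and 0.609 FPKM in 5xFAD EGFP. It fell by 0.83 on the log2 scale (limma adjusted p = 0.0145), a call lost without wild type replicate 1 or without either EGFP library but kept without wild type replicate 3 (−0.78). In circRNA against wild type 2 of the 7 passed as higher and 1 as lower, and in PKR KO against wild type 2 as higher and 2 as lower, beside 25.8% and 37.0% of all genes tested. The genes behind these counts are named after their values were seen. The higher ones in both were Igsf8 and Ptgfrn, immunoglobulin-superfamily partners of CD9 and CD81, and the lower ones were Itga3 in both and Adam10, a sheddase that tetraspanins escort, in PKR KO. The call of Igsf8 in circRNA was lost without wild type replicate 3 (0.24; limma adjusted p = 0.0999), and with that replicate left out Adam10 also passed as lower in 5xFAD EGFP (−0.36; limma adjusted p = 0.0348).

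The next list held genes of endosomal sorting and vesicle release, the route by which CD63 leaves the cell. Of 16 listed genes 14 were tested, and 2 passed as higher and 0 as lower in 5xFAD EGFP against wild type, with a median change of 0.06. That share is near the 14.0% of all genes tested and is not read as a result about the list. Sdcbp, which encodes syntenin, the adaptor that links CD63 and syndecans to exosome formation, rose from 16.2 to 23.6 FPKM as group means (log2 change 0.52; limma adjusted p = 0.0174), and its call was lost without 5xFAD EGFP replicate 1 and with those groups fitted alone but kept without wild type replicate 3 (0.41). Rab27a, which docks multivesicular bodies at the plasma membrane, rose from 7.10 to 10.1 FPKM (log2 change 0.47; limma adjusted p = 0.0490), a call lost in 16 of 21 other settings, among them without wild type replicate 3 (0.29; limma adjusted p = 0.0603). In circRNA against wild type 6 of the 14 passed as higher and 0 as lower, and in PKR KO against wild type 4 as higher and 1 as lower, beside 25.8% and 37.0% of all genes tested. When wild type replicate 3 was left out, the counts were 1 higher and 0 lower in 5xFAD EGFP, 4 and 0 in circRNA, and 4 and 2 in PKR KO, beside 18.5%, 23.8% and 35.0% of all genes tested.

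The last list held membrane proteins of late endosomes and lysosomes, where CD63 resides. All 6 listed genes were tested, and 3 passed as higher in 5xFAD EGFP against wild type and 0 as lower, with a median change of 0.49, beside 14.0% of all genes tested. Cd68, a lysosomal glycoprotein of phagocytes, was at 134, 142 and 81.1 FPKM in wild type and at 367 and 355 FPKM in 5xFAD EGFP (log2 change 1.63; limma adjusted p = 0.000709), and it passed in all 21 other settings, at 1.38 without wild type replicate 3. Lamp1 rose from 128 to 204 FPKM as group means (log2 change 0.68; limma adjusted p = 0.0142), a call lost without either EGFP library and with those groups fitted alone but kept without wild type replicate 3 (0.55). Lamp2 rose from 19.2 to 27.8 FPKM (log2 change 0.53; limma adjusted p = 0.0409), a call lost in 11 of 21 other settings, among them without wild type replicate 3 (0.36; limma adjusted p = 0.0636) and without either EGFP library. In circRNA and in PKR KO against wild type, 4 of the 6 passed as higher and 0 as lower, beside 25.8% and 37.0% of all genes tested. With wild type replicate 3 left out, 2 passed as higher and 0 as lower in 5xFAD EGFP, 3 and 0 in circRNA, and 2 and 1 in PKR KO, beside 18.5%, 23.8% and 35.0% of all genes tested.

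**Figure D4:**
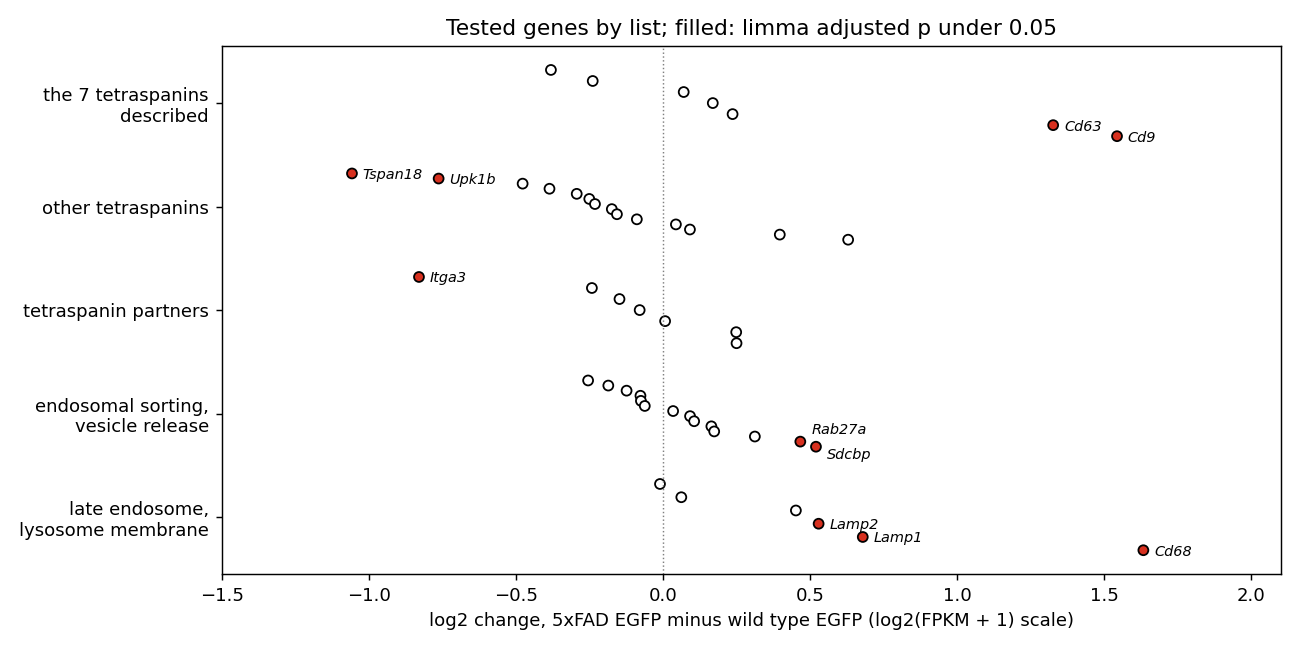
Log2 change in 5xFAD EGFP against wild type EGFP (x axis, log2(FPKM + 1) scale) for the tested genes of 5 lists (rows; vertical offset within a row only separates points); filled and named points passed a limma adjusted p of 0.05. Cd9 at 1.54, Cd63 at 1.33 and Cd68 at 1.63 lie furthest to the right, and no other tetraspanin is filled to the right of 0 with all libraries in the fit.

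Within 5xFAD, 3 genes of these lists passed, all in circRNA against PKR KO and all higher with circRNA, and 0 passed in circRNA against EGFP or in PKR KO against EGFP. In circRNA against PKR KO, 6.19% of all genes tested passed, 463 of the 670 as higher with circRNA, so the 3 genes are not read as a result about the lists. Tspan3, a tetraspanin found in many tissues, was at 11.3, 9.75, 13.6 and 11.6 FPKM in the circRNA group, beside 9.33, 7.38, 8.35 and 7.85 FPKM in PKR KO (log2 change 0.44; limma adjusted p = 0.0329). Rab31, a small GTPase of endosomal sorting, averaged 25.6 against 19.6 FPKM (log2 change 0.37; limma adjusted p = 0.0217), and Npc1, the lysosomal cholesterol exporter, 17.2 against 13.2 FPKM (log2 change 0.35; limma adjusted p = 0.0289). Leaving out 1 library ended the call for Tspan3 in 7 of 13 cases, for Rab31 in 4 and for Npc1 in 6, each time a circRNA or a PKR KO library. The PKR KO libraries were deeper and alone carry library names, and those differences cannot be told apart from the genotype.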

How the data were processed

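Gene expression was measured in 13 libraries of mouse microglia RNA, grouped by title. Per the labels' protocols, RNA was extracted with TRIzol, depleted of ribosomal RNA and made into stranded TruSeq libraries. The submitters' processing notes name HISAT2 2.1.0, Bowtie2 2.3.5, featureCounts 1.5.1 and mm10, with no roles, and the annotation and strand setting are not given in the sources used here. The authors deposited 1 table of FPKM values for 19737 genes, 1 column per library. FPKM is relative to each library's total, so abundant genes that change can shift other values. Depth was recovered from the steps in low values, using exon lengths of GENCODE M21 for 98.2% of genes. Of 47089 values under 0.3 FPKM, 90.7% came out whole within 0.02 of a fragment and 96.3% whole or at an odd multiple of 0.5.

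Tests used limma 3.58.1 in R 4.3.3 (eBayes with trend) on log2(FPKM + 1), which understates changes of low genes, in the 10817 genes whose mean was 1 FPKM or more. All libraries entered 1 fit with a mean per group and 9 residual degrees of freedom. The Benjamini-Hochberg adjustment of p-values ran over all genes tested within each of 6 comparisons, with a threshold of 0.05, and 95% intervals are not adjusted. The script was tested on simulated data. Alternatives were pseudocounts of 0.1 and 5, no filter, rescaling to the same sum, median-ratio scaling, the compared groups alone, library weights (arrayWeights), the replicate number as a block, and leaving out each library.

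The members and the lists were chosen with earlier results of these data known. By rule, the named genes are the 7 members, up to 4 genes in each direction from each other list that passed in 5xFAD EGFP against wild type, up to 3 that passed between 5xFAD groups, and the 3 nearest profiles of members whose group means span at least 0.5. Tspan2, Tspan17, Igsf8, Ptgfrn, Adam10 and the markers named in the text were named after their values were seen, and of the alternatives at most the one without wild type replicate 3 is reported for them. Promoter sequences are from RefSeq (GRCm38.p6), in which all 7 members matched.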

Additional observations from a re-analysis of the deposited data

Results flagged for a closer look

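In 14 groups of 4 libraries (7 genes, with circRNA and in PKR KO), 2 had a library far from the other 3, by a gap larger than Dixon's 95% critical share of the group's range, and chance alone gives about 1 in 20 such groups. Cd82 in PKR KO replicate 4 was at 16.4 FPKM, below the other 3 libraries of its group at 19.7 to 19.9 FPKM, with a gap of 0.934 of the range. Cd37 in PKR KO replicate 2 was at 47.8 FPKM, above the other 3 at 41.3 to 41.7 FPKM, with a gap of 0.928 of the range. Without PKR KO replicate 4 the change of Cd82 in PKR KO against wild type was −0.26 (limma adjusted p = 0.0992).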

How the results depend on the processing

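Over the 7 members and 6 comparisons, 882 alternative values were computed, of which 809 kept their direction and side of the threshold, 25 lost a call, 9 gained one and 39 changed sign, all of these last for differences that did not pass. Among the 11 genes that the naming rule took from other lists, the alternatives for which were added after seeing the data, 170 of 231 values kept the call, 61 lost it and none changed sign. Cd9 and Cd63 passed in all 3 comparisons with wild type under every alternative run. The number of members called moved by over 1.5 times in 5xFAD EGFP against wild type after rescaling to the same sum (4, with 34.3% of all genes tested called beside 14.0%). It also moved in circRNA against PKR KO with library weights (1, with 29.2% called beside 6.19%) and over the libraries left out (0 to 1, the 1 being without wild type replicate 3, with 12.4% called). The counts of called genes in the other lists without that replicate were added after seeing the data. The causes were not tested.

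The signs that changed, on the log2 scale, were these. After rescaling to the same sum, 5xFAD EGFP against wild type gave −0.10 for Cd81 and −0.0006 for Cd37, circRNA against EGFP −0.076 for Cd37, PKR KO against EGFP −0.0221 for Cd151, circRNA against wild type −0.0484 for Cd81 and −0.0765 for Cd37, and PKR KO against wild type −0.21 for Cd81, −0.15 for Cd53 and −0.0831 for Cd37. With library weights, Cd81 was −0.0464 in 5xFAD EGFP and −0.0859 in PKR KO against wild type, Cd53 −0.0762 in PKR KO against wild type, and Cd37 −0.0327 in circRNA against EGFP, −0.0208 in circRNA against wild type, −0.0016 in PKR KO against wild type and −0.0192 in circRNA against PKR KO. With median-ratio scaling, Cd37 was −0.0615 in circRNA against EGFP and −0.036 in circRNA against PKR KO.

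With each library left out in turn, the ranges that crossed 0 were −0.0907 to 0.20 for Cd81 and −0.0431 to 0.29 for Cd37 in 5xFAD EGFP against wild type, −0.0124 to 0.11 for Cd37 in circRNA against EGFP, and −0.18 to 0.0837 for Cd81, −0.0751 to 0.0113 for Cd37 and −0.19 to 0.25 for Cd151 in PKR KO against EGFP. They were −0.0048 to 0.33 for Cd37 in circRNA against wild type, −0.14 to 0.11 for Cd81, −0.13 to 0.23 for Cd53 and −0.0679 to 0.26 for Cd37 in PKR KO against wild type, and −0.0775 to 0.0711 for Cd9 and −0.18 to 0.0743 for Cd63 in circRNA against PKR KO. Where a group of 2 lost a library, the lone library was assumed to vary like the other groups.

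The replicate numbers are shared between groups, but the labels do not say that they pair libraries. Deviations of same-numbered libraries correlated by −0.18 to 0.58 in PKR KO and wild type (3 pairs). They correlated by 0.04 to 0.55 in circRNA and PKR KO (4 pairs). The means were 0.14 and 0.19, beside −0.05 and −0.06 for differently numbered libraries. In PKR KO and 5xFAD EGFP the mean was 0.33 (2 pairs), beside −0.11. In the remaining comparisons the means were 0.02 to 0.12 for same numbers and −0.06 to −0.02 for different ones. Pairing was thus neither established nor excluded. With the replicate number as a replicate block, Cd81 was 0.0613 and Cd37 0.0845 in PKR KO against EGFP, and the calls of Cd53 in circRNA (adjusted p = 0.0795) and Cd82 in PKR KO (adjusted p = 0.0832) against wild type were lost, as were those of Sdcbp, Rab27a, Lamp1, Lamp2 and Npc1.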

Other observations

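Tspan2, a tetraspanin of myelinating cells, varied between libraries of the same group, and it was singled out after its values were seen. It was at 4.43, 3.81 and 13.0 FPKM in wild type replicates 1 to 3, 10.4 and 9.67 in 5xFAD EGFP, 11.8, 3.35, 5.03 and 10.3 with circRNA, and 3.23, 1.92, 3.25 and 3.73 FPKM in PKR KO. The summed level of 7 oligodendrocyte markers in the same order was 401, 362 and 1610 FPKM, then 669 and 710.0, then 778, 314, 323 and 813, and then 273, 230.5, 250.3 and 387 FPKM. The 5 libraries highest in Tspan2 are the 5 with the highest oligodendrocyte sums. The 4 border macrophage markers (Mrc1, Cd163, Pf4 and Lyve1) summed to 28.8 to 46.0 FPKM in wild type and 10.6 to 19.5 FPKM in the 5xFAD libraries, and all 4 passed as lower in each 5xFAD group against wild type, beside 14.0%, 25.8% and 37.0% of all genes tested. They also did without wild type replicate 3, beside 18.5%, 23.8% and 35.0%.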
